A study of Sus scrofa with 4 samples.

Results

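The comparison described here set Laiwu pigs labelled 120 d of age against Laiwu pigs labelled 240 d, in the longissimus dorsi (LD), the long muscle of the back. It holds 6 of the 12 RNA-seq libraries of the series, 3 for each of these 2 ages, and its members were taken by the age in the sample labels alone. Laiwu is a Chinese breed whose LD muscle lays down much intramuscular fat, and the study followed that muscle through 4 ages, 60, 120, 240 and 400 d. The pigs were castrated males of the wild type, 3 per age, each measured once and kept under like housing and feed, so that no treatment or allele separates the groups. Polyadenylated RNA of the whole muscle was sequenced, and each library therefore holds fibres together with fat cells, fibroblasts, vessels, nerve and blood.

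The ages themselves are in doubt. In a supplementary list of changed genes, the libraries labelled 120 d carry the name 400 d and those labelled 240 d the name 120 d. The median absolute log2 difference between that list and the FPKM (fragments scaled to transcript length and to the mapped total of a library) of these libraries was 0.0199 for the first pair of names over 243 genes and 0.02 for the second over 998 genes. With the ages of the list, every direction over time given below would turn round, while the 3 against 3 grouping of the libraries would stay as it is. Directions therefore stand for higher or lower in the libraries labelled 240 d, which are called the 240 d libraries from here on. The words rose, fell, increase and decrease have this meaning alone and state no course over time.

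Skeletal muscle makes its energy from glycogen and glucose by glycolysis and from fatty acids by oxidation in mitochondria, and a fibre can shift between these fuels with feeding, hormones and work. Its mass depends on the balance of protein synthesis with breakdown through the proteasome and through autophagy, in which membranes enclose cell parts for digestion. Fibres grow by fusing with satellite cells, the stem cells of muscle, and lie in a collagen matrix made by fibroblasts, with fat cells between the bundles.

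The total count was 10387119, 11042758 and 9713813 fragments in the 3 libraries labelled 120 d (replicates 1 to 3) and 11152068, 11912809 and 11761414 in those labelled 240 d. In a principal component analysis of the 6 libraries, the first component held 50.5% of the variance and separated the ages, and the second, with 18.2%, placed replicate 2 of 120 d (at 40.8) apart from replicates 1 and 3 of that age (at -34.0 and -27.7). Desmin (DES), an intermediate filament protein of muscle, stood at 4121, 1999.7 and 2357 FPKM in the 120 d libraries and at 4184, 4558 and 3265 FPKM in the 240 d libraries, and 3 of 10 fibre markers, ACTA1, DES and NEB, were matched. ACTA1, the skeletal muscle alpha-actin, was listed at 0 in replicates 1 and 3 of 120 d but had 893060 counts in replicate 2 and 955237, 785524 and 662916 counts in the 240 d libraries, 5.64% to 8.57% of each of these 4 libraries. Since an exact 0 can be a failed estimate and no muscle lacks this transcript, no change is drawn from it (adjusted p = 0.731). Symbols, which the files do not hold, were paired with 11472 of 22657 identifiers, so that ADIPOQ, FABP4, MYH1, CKM, PAX7, MYOG and further well-known genes of muscle and fat were not analysed here.

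Between the 120 d and 240 d libraries, 705 of 12993 tested features, 5.43%, were called at an adjusted p of 0.05 or below by the quasi-likelihood test of edgeR. Of these, 298 (2.29% of the features tested) were higher and 407 (3.13%) were lower in the 240 d libraries, with median log2 changes of 1.1 and -1.36. The median over all tested features was 0.005. A total of 454 called features had a symbol, 198 of them higher (2.44% of the 8129 tested with a symbol) and 256 lower (3.15%), and 9 carried a symbol from the study's own gene tables and are not described further. The FPKM of the ages did not overlap in 698 of the 705, against 17.0% of all tested features with every 240 d library above and 18.4% with every 240 d library below the 120 d libraries. Counts passed the filter (a mean of 10 at either age) through 1 age alone in 51 of the called features.

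The number of calls rested on having all 6 libraries. It fell to 470, 18 and 3 without replicate 1, 2 or 3 of 240 d, and to 105, 154 and 2 without replicate 1, 2 or 3 of 120 d. Of the 705 calls, 306, 16 and 3 and then 90, 128 and 2 were called again. In each of these 6 fits every feature of the 705 that was tested again kept its direction and had an unadjusted p under 0.05. The 705 were chosen on these same libraries, so this was largely set in advance and gives no separate support. In the main fit 4037 of all 12993 features had an unadjusted p under 0.05. The calls in the lists by function described below rested on all 6 libraries too. Their 39 distinct called members became 31, 2 and 0 without replicate 1, 2 or 3 of 240 d. They became 17, 11 and 1 without replicate 1, 2 or 3 of 120 d. The Wald test of DESeq2 called 2087 features. The calls went with the length of the feature: among the longest of 3 equal groups of features (3651 to 27707 bases), 4.11% were called higher and 2.54% lower, while among the shortest group (174 to 1884 bases) 1.04% were called higher and 3.86% lower. The median length was 4238 bases for features called higher, 2255 bases for those called lower and 2661 bases for all. After the length trend of each library was removed, an alternative added after seeing the data, 294 were called higher and 329 lower.

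**Figure D1:**
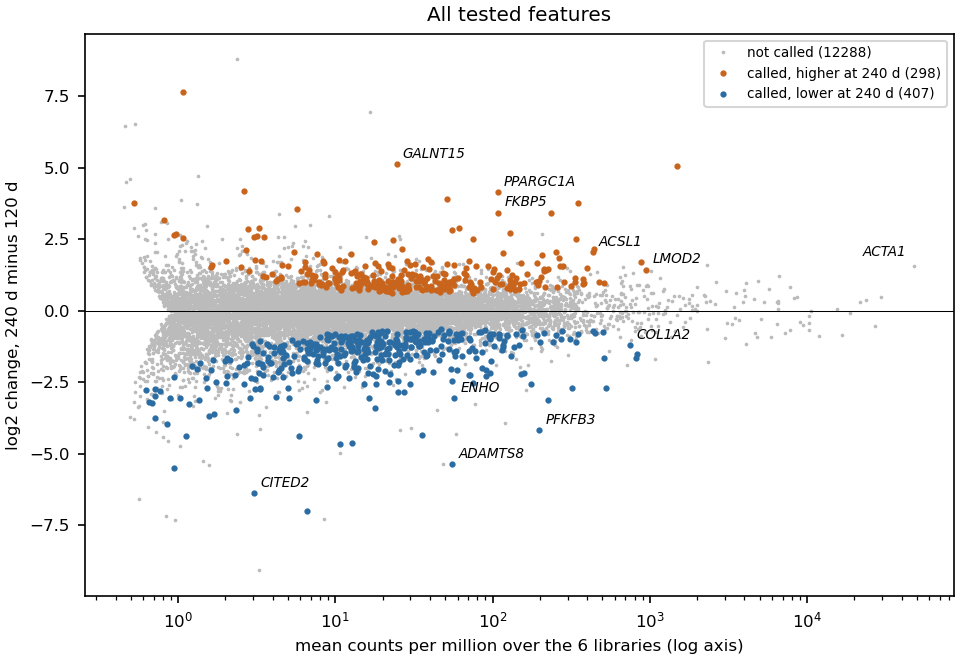
Each point is 1 of the 12993 tested features, with its mean CPM (counts scaled to library size) over the 6 libraries on a log axis and its log2 change from 120 d to 240 d. The 298 features called higher (orange) and the 407 called lower (blue) spread over all but the highest levels, and ACTA1, listed at 0 in 2 libraries, was not called.

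By the same limits as for the decreases below (a symbol, a mean of at least 50 counts at the higher age, ages that did not overlap), the 15 genes with the largest called increases included an enzyme of glycosylation, regulators of fuel use and a gene of the glucocorticoid response. GALNT15, which starts O-linked sugar chains on proteins (Sscrofa10.2 chromosome 13, 3520484 to 3561262), had 0.629, 0.211 and 0.193 FPKM in the 120 d libraries and 2.21, 20.9 and 9.58 FPKM in the 240 d libraries (log2 change 5.14, SE 0.82, adjusted p = 0.0327). PPARGC1A, the coactivator PGC-1alpha that drives the expression of mitochondrial genes, had 2.16, 1.67 and 0.806 against 6.34, 15.5 and 62.6 FPKM (log2 change 4.16, SE 0.84, adjusted p = 0.0415). It lies on the unplaced scaffold GL896199.1 of Sscrofa10.2. Both genes were low in every 120 d library, but the 240 d libraries differed widely among themselves, with replicate 2 highest for GALNT15 and replicate 3 for PPARGC1A. ACSL1, which joins long-chain fatty acids to coenzyme A (Sscrofa10.2 chromosome 15, 52526101 to 52593343), was far more even, with 33.7, 52.5 and 43.6 FPKM at 120 d and 179, 139 and 224 FPKM at 240 d (log2 change 2.06, SE 0.26, adjusted p = 0.0244). LPIN1, a phosphatidate phosphatase of triglyceride synthesis that also acts as a coactivator (Sscrofa10.2 chromosome 3, 133660275 to 133741130), had 3.41, 8.08 and 4.73 against 18.8, 41.3 and 46.4 FPKM (log2 change 2.71, SE 0.42, adjusted p = 0.0313). None of these 4 genes overlapped between the ages, a condition of their choice.

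FKBP5, a co-chaperone of the glucocorticoid receptor that glucocorticoids themselves induce (Sscrofa10.2 chromosome 7, 36370563 to 36478545), stood at 74.8, 75.2 and 69.9 FPKM in the 240 d libraries and at 13.9, 1.39 and 6.25 FPKM in the 120 d libraries (log2 change 3.44, SE 0.74, adjusted p = 0.0442). Its 240 d libraries were nearly equal, and the spread lay in the 120 d libraries, where replicate 2 was lowest. AMPD3, which deaminates AMP, had 0.752, 3.30 and 1.03 against 5.81, 40.3 and 16.3 FPKM (log2 change 3.90, SE 0.84, adjusted p = 0.0443). DDIT4L, an inhibitor of mTORC1 signalling, had 17.6, 59.4 and 36.7 against 97.7, 130.2 and 183 FPKM (log2 change 1.85, SE 0.43, adjusted p = 0.0495). Here too the rule of choice required the highest 120 d library to stay below the lowest 240 d library.

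A pair of kinases and several membrane and trafficking genes followed. ROCK2, a kinase of the actin cytoskeleton, rose from 10.7, 8.36 and 9.06 to 22.4, 48.2 and 37.4 FPKM (log2 change 1.94, SE 0.29, adjusted p = 0.0310), and DAPK2, a calmodulin-dependent kinase, from 2.41, 2.69 and 2.08 to 6.83, 12.4 and 15.4 FPKM (log2 change 2.47, SE 0.30, adjusted p = 0.0232). RABEP2, an effector of endosomal Rab GTPases, had the smallest error among these genes, with 2.88, 3.09 and 2.60 against 13.2, 15.1 and 10.3 FPKM (log2 change 2.17, SE 0.19, adjusted p = 0.0154). ITIH3, a chain of the inter-alpha-trypsin inhibitor, was low but very even, at 0.243, 0.284 and 0.319 against 1.73, 1.91 and 1.59 FPKM (log2 change 2.61, SE 0.27, adjusted p = 0.0158). With 8, 11 and 10 counts in the 120 d libraries, it reached the filter's mean of 10 counts at 240 d alone. The remaining genes of the 15 were FNTB, the beta subunit of farnesyltransferase (log2 change 2.83), the hydrolase gene ABHD2 (2.91), FILIP1, a partner of filamin (2.02), and C4orf46 (2.42).

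Among called genes with a symbol, a mean of at least 50 counts at the higher age and ages that did not overlap, the largest decreases were those of CITED2, ADAMTS8, KCNIP2, ARG2 and PFKFB3. CITED2, a partner of the coactivators CBP and p300 (Sscrofa10.2 chromosome 1, 28295773 to 28296594), had 8.18, 9.34 and 5.54 FPKM in the 120 d libraries, with 191 counts in all, and 2, 0 and 0 counts in the 240 d libraries. The ratio of the counts, scaled to library size, was 107 (95% exact interval 29.2 to 888, counting error only), and the adjusted p was 0.0161. ADAMTS8, a secreted metalloproteinase, had 41.8, 5.12 and 24.4 against 0.541, 0.734 and 0.477 FPKM (log2 change -5.37, SE 0.74, adjusted p = 0.0294). KCNIP2, a subunit of voltage-gated potassium channels, fell from 0.794, 5.92 and 5.56 to 0.393, 0.0393 and 0.117 FPKM (log2 change -4.39, SE 0.86, adjusted p = 0.0409), with 11, 2 and 4 counts in the 240 d libraries. CITED2 was thus below the floor of 3 counts in every 240 d library and KCNIP2 in 1 of them, while ADAMTS8 had 25 to 36 counts in each.

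PFKFB3, which makes fructose 2,6-bisphosphate, the activator of phosphofructokinase in glycolysis (Sscrofa10.2 chromosome 10, 70831452 to 70857751), had 12.1, 107 and 88.5 FPKM at 120 d and 6.34, 2.26 and 3.14 FPKM at 240 d (log2 change -4.18, SE 0.79, adjusted p = 0.0402). ARG2, the mitochondrial arginase, fell from 7.54, 24.1 and 105 to 4.02, 0.942 and 1.83 FPKM (log2 change -4.33, SE 0.99, adjusted p = 0.0483). In PFKFB3, ARG2 and KCNIP2 alike, replicate 1 was the lowest library of 120 d and another replicate 1 the highest of 240 d. By the rule of choice, their ages did not overlap.

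ENHO, which encodes the secreted peptide adropin (Sscrofa10.2 chromosome 10, 36432756 to 36433507), stood at 102, 107 and 241 FPKM in the 120 d libraries and at 24.5, 14.8 and 15.2 FPKM in the 240 d libraries (log2 change -3.05, SE 0.40, adjusted p = 0.0244). IER3, an immediate early gene, had 31.7, 31.3 and 13.8 against 2.25, 2.17 and 2.84 FPKM (log2 change -3.39, SE 0.34, adjusted p = 0.0158). FRRS1, a ferric reductase, had 5.48, 5.58 and 21.1 against 1.37, 0.871 and 1.16 FPKM (log2 change -3.05, SE 0.58, adjusted p = 0.0409), where replicate 3 of 120 d stood above the others. Genes of white blood cells and of the antiviral response were among the rest. They held TAGAP, a GTPase-activating protein of T cells (log2 change -3.06), and DOK2, a docking protein of blood cells (-2.72). With them stood DDX60, an antiviral helicase (-3.05), and MX1, an antiviral GTPase (-2.85). Their ages did not overlap, as the rule of choice required. Replicate 2 of 120 d was the highest library in each of them, with 1.82 FPKM for TAGAP against 0.567 and 0.659 FPKM in replicates 1 and 3. DDX60 had 30, 190 and 72 counts in the 120 d libraries and 20, 5 and 10 counts in the 240 d libraries. ARMCX6 (-3.13), EVA1C (-2.75) and FAM111B (-2.70) completed the 15. In whole muscle, fewer cells of a type and less RNA per cell cannot be told apart.

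**Figure D2:**
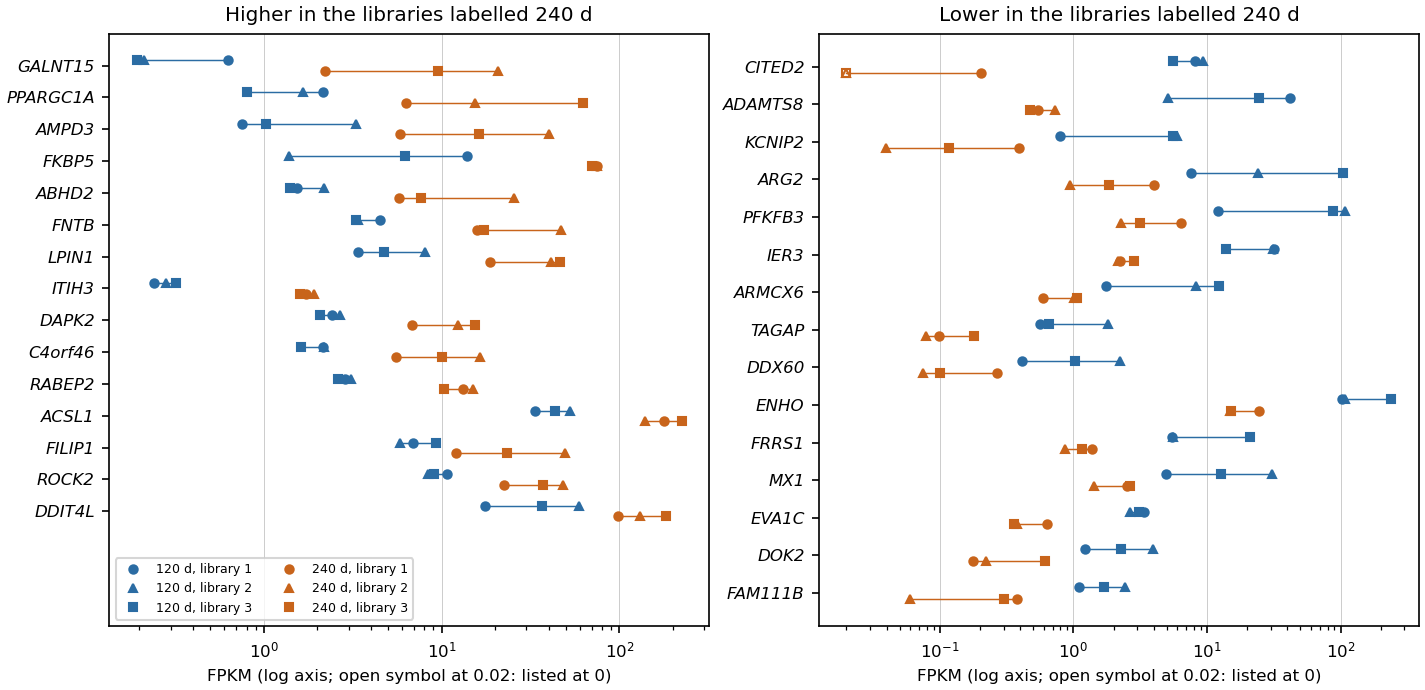
FPKM on a log axis for the 15 named genes with the largest called increase (left) and decrease (right), with 1 symbol per library, blue for 120 d and orange for 240 d, a line from the lowest to the highest library of an age, and an open symbol where a library is listed at 0 (libraries 1 to 3 are replicates 1 to 3). The ages do not overlap in any of the 30 genes, a condition by which they were chosen. FKBP5 and ITIH3 are nearly equal among the 240 d libraries, while PPARGC1A and GALNT15 differ widely among them.

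The changes were next read through 18 lists of genes by function, of which 372 of 568 entries were tested, beside shares called of 2.29% higher and 3.13% lower over all features. Mitochondrial fatty acid oxidation was the metabolic list with the most calls. Of its 24 tested genes, 5 rose and 0 fell, 21 had a positive log2 change, and the median was 0.58. Beside ACSL1 and PPARGC1A, the genes that rose were ETFDH, which passes electrons from fatty acid breakdown to ubiquinone (72.3, 65.4 and 57.5 against 128, 114 and 114 FPKM, log2 change 0.85, SE 0.17, adjusted p = 0.0415), ACADM, the medium-chain acyl-CoA dehydrogenase (79.0, 88.1 and 76.3 against 163, 116 and 169 FPKM, log2 change 0.88, SE 0.20, adjusted p = 0.0487), and LIPE, the hormone-sensitive lipase (5.60, 8.44 and 8.01 against 21.7, 11.8 and 15.4 FPKM, log2 change 1.16, SE 0.27, adjusted p = 0.0491). Every 240 d library exceeded every 120 d library in 12 of the 24 genes, against 17.0% of all features. The carnitine shuttle genes CPT1B (0.88, adjusted p = 0.0678), CPT2 (0.89, 0.0641) and SLC25A20 (0.75, 0.0680) did not pass the test. UCP2 had the lowest value, -1.42 (adjusted p = 0.0867), and its highest library, 11.3 FPKM, was replicate 2 of 120 d.

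The nuclear genes of the respiratory chain and the citric acid cycle gave no call. The median over 28 tested genes was 0.12, 20 were positive, and 2 had an unadjusted p under 0.05, against 4037 of all 12993 tested features. NDUFA4, a subunit of cytochrome c oxidase, had 1199, 757 and 941 FPKM at 120 d and 1191, 715 and 1197 FPKM at 240 d, and COX4I1, another subunit, had 859, 617 and 614 against 716, 479.8 and 667 FPKM. Both pairs of groups overlapped, and their adjusted p were 0.803 and 0.646. The summed level of the list was 5490 to 7614 FPKM in the 120 d libraries and 5503 to 7733 FPKM in the 240 d libraries.

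Among 25 tested genes of glycogen and glycolysis, 1 rose and 1 fell, and the median was -0.19. GBE1, the branching enzyme of glycogen, had 6.20, 5.32 and 5.28 FPKM at 120 d and 10.3, 16.0 and 15.8 FPKM at 240 d (log2 change 1.35, SE 0.23, adjusted p = 0.0340), while the decrease was that of PFKFB3. The abundant glycolytic enzymes lay lower in the 240 d libraries without passing the test: PGAM2, phosphoglycerate mutase, had 7726, 5931 and 8611 against 3506, 3896 and 2570.1 FPKM (adjusted p = 0.0525), and GAPDH had 47650, 35161 and 47424 against 27553, 22749 and 18823 FPKM (adjusted p = 0.106). The groups did not overlap in either gene. The summed level of the list was 73300 to 99770 FPKM in the 120 d libraries and 45020 to 61840 FPKM in the 240 d libraries, a sum in which GAPDH and ENO3 stood highest.

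Fat cell genes rose in 4 of 16 tested members and fell in 0, with a median of 0.35. Of the 16, 11 had a positive and 5 a negative log2 change, the lowest -1.695. Every 240 d library lay above every 120 d library in 7 and below in 3, against 17.0% and 18.4% of all features. The summed level of the 17 matched genes was 881 to 1197 FPKM in the 120 d libraries and 554 to 929 FPKM in the 240 d libraries. These 4 were LPIN1 and LIPE, described above, and GPAM, which makes the first step of glycerolipid synthesis (1.58, 1.46 and 1.27 against 4.78, 2.61 and 5.83 FPKM, log2 change 1.63, SE 0.30, adjusted p = 0.0385), and ME1, the malic enzyme that supplies NADPH for lipid synthesis (3.92, 3.64 and 6.94 against 11.5, 11.2 and 11.6 FPKM, log2 change 1.22, SE 0.26, adjusted p = 0.0433). The 240 d libraries were nearly equal for ME1 and exceeded the 120 d libraries in all 4. With all 12 libraries in 1 fit, LPIN1 and GPAM alone of the list were called. The markers that define fat cells did not move together: none of 3 tested was called, the droplet proteins PLIN1 (4.22, 12.0 and 8.48 against 20.1, 11.1 and 14.8 FPKM) and CIDEC (3.44, 5.80 and 6.0 against 10.9, 7.57 and 12.0 FPKM) had log2 changes of 0.97 and 1.03 (adjusted p = 0.142 and 0.0640), and CFD, adipsin, had -0.71 (0.114). RETN was listed at 0 in all 6 libraries. The summed level of the 4 matched markers was 131 to 225 FPKM in the 120 d libraries and 89.8 to 145 FPKM in the 240 d libraries. CFD made up most of this sum in every library (123, 208 and 191 against 114, 71.2 and 116 FPKM), so the sum does not speak for PLIN1 and CIDEC. The part of fat cell number in the rise of lipid genes was not tested.

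In cholesterol synthesis and uptake the calls were decreases, with 0 of 17 tested genes called higher and 2 called lower, 16 negative and a median of -0.55. INSIG1, which holds back the maturation of sterol regulatory proteins, had 9.05, 8.23 and 8.26 FPKM at 120 d and 3.75, 3.98 and 3.97 FPKM at 240 d, with the ages apart and each nearly even (log2 change -1.14, SE 0.15, adjusted p = 0.0244). SQLE and HSD17B7 had log2 changes of -1.63 and -1.60 but did not pass the test (adjusted p = 0.0885 and 0.0640).

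Target genes of glucocorticoids and of FoxO factors, which fasting and stress hormones switch on in muscle, rose in 5 of 23 tested members and fell in 1, with a median of 0.44. The members that rose were FKBP5 and LPIN1, the arrestin-like ARRDC2 (4.05, 2.60 and 7.70 against 13.4, 21.6 and 16.4 FPKM, log2 change 1.80, SE 0.35, adjusted p = 0.0411), the transcription factor KLF9 (11, 9.02 and 18.7 against 42.4, 33.9 and 28.6 FPKM, log2 change 1.44, SE 0.30, adjusted p = 0.0427) and SESN1, a sestrin that restrains mTORC1 (29.9, 30.2 and 29.3 against 66.8, 57.2 and 43.7 FPKM, log2 change 0.88, SE 0.19, adjusted p = 0.0443). The member that fell was CITED2. FOXO1 itself (4.5, 5.82 and 8.28 against 20.0, 11.4 and 18.3 FPKM, adjusted p = 0.0587) and the muscle ubiquitin ligase TRIM63 (98.3, 146 and 187 against 254, 269 and 501 FPKM, adjusted p = 0.0624) did not overlap between the ages but missed the threshold. NR3C1, the glucocorticoid receptor, had a log2 change of 0.14 (0.636). PER1, also a target, split the 240 d libraries, at 96.3, 11.4 and 8.67 FPKM, and was called lower without replicate 1 of 240 d. With all 12 libraries in 1 fit, LPIN1 and CITED2 alone of the list were called.

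In insulin and growth factor signalling 1 of 24 tested genes rose and 0 fell, with a median of 0.32. GHR, the growth hormone receptor (Sscrofa10.2 chromosome 16, 28691713 to 28855128), stood at 24.0, 21.2 and 20.6 FPKM in the 120 d libraries and at 44.2, 40.8 and 38.2 FPKM in the 240 d libraries (log2 change 0.92, SE 0.16, adjusted p = 0.0372). Its ages lay well apart, and the libraries of each age differed little. MSTN, myostatin, the inhibitor of muscle growth, had 4.89, 8.66 and 17.9 against 3.73, 0.963 and 1.55 FPKM with an adjusted p of 0.0530, and IRS1, which couples the insulin receptor to its pathway, had 19.9, 29.2 and 23.5 against 17.2, 7.24 and 6.90 FPKM (0.0783). INSR, the insulin receptor, had a log2 change of 1.18 (0.0624), so none of these 3 passed.

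No gene of the circadian clock (14 tested, median 0.41), of the amino acid stress response to ATF4 (14 tested, median -0.47) or of the heat shock and chaperone list (24 tested, median -0.16) was called. At an unadjusted p under 0.05 there were 6, 5 and 6 of them, against 4037 of all 12993 tested features. The median of the heat shock list turned to 0.095 without replicate 1 of 120 d and to 0.030 without replicate 1 of 240 d. CRY2, a clock repressor, had 55.9, 46.5 and 56.6 FPKM at 120 d and 72.7, 60.9 and 29.3 FPKM at 240 d, and USP2, a clock-controlled protease, had 32.8, 29.0 and 41.0 against 61.5, 37.9 and 62.7 FPKM, with overlap in both. VLDLR and SLC3A2, the most abundant of the stress targets, had log2 changes of -0.55 (adjusted p = 0.210) and 0.16 (0.800). DNAJA1, a co-chaperone of heat shock proteins, had 109, 80.5 and 90.5 against 21.7, 51.1 and 41.1 FPKM, without overlap, and just missed the threshold (log2 change -1.30, adjusted p = 0.0504), which it passed with no count filter and with the 2 other filters tried. Its relative DNAJB1, which the study's gene tables hold, is not in the list. HSPA1L had 2858, 868 and 1868 against 269.8, 783 and 559.9 FPKM (adjusted p = 0.0709), but heat shock genes of this family have near-identical copies among which reads can be split, so the level is uncertain. HSPB8, a small chaperone, overlapped widely, at 516, 364 and 489 against 281, 1389 and 954 FPKM.

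Immediate early genes, which answer within minutes to stretch, handling or growth signals, were lower in the 240 d libraries in 15 of 16 tested members, with a median of -1.65 and 2 calls. These were IER3 and KLF10, a transcription factor of the TGF-beta response (4.97, 9.39 and 9.06 against 2.19, 1.08 and 1.85 FPKM, log2 change -2.19, SE 0.34, adjusted p = 0.0310). Replicate 2 of 120 d was the highest library in 12 of the 16 genes. JUNB had 19.5, 353 and 13.9 FPKM at 120 d against 17.6, 9.94 and 28.4 FPKM at 240 d (adjusted p = 0.150), and FOS had 142, 342 and 66.1 against 111, 38.8 and 38.3 FPKM (adjusted p = 0.147). Without that library the median was -0.88 and IER3 alone was called. Neither IER3 nor KLF10 was called without replicate 2 or 3 of 240 d. DUSP1, an early gene too, was the single positive member (log2 change 0.36).

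**Figure D3:**
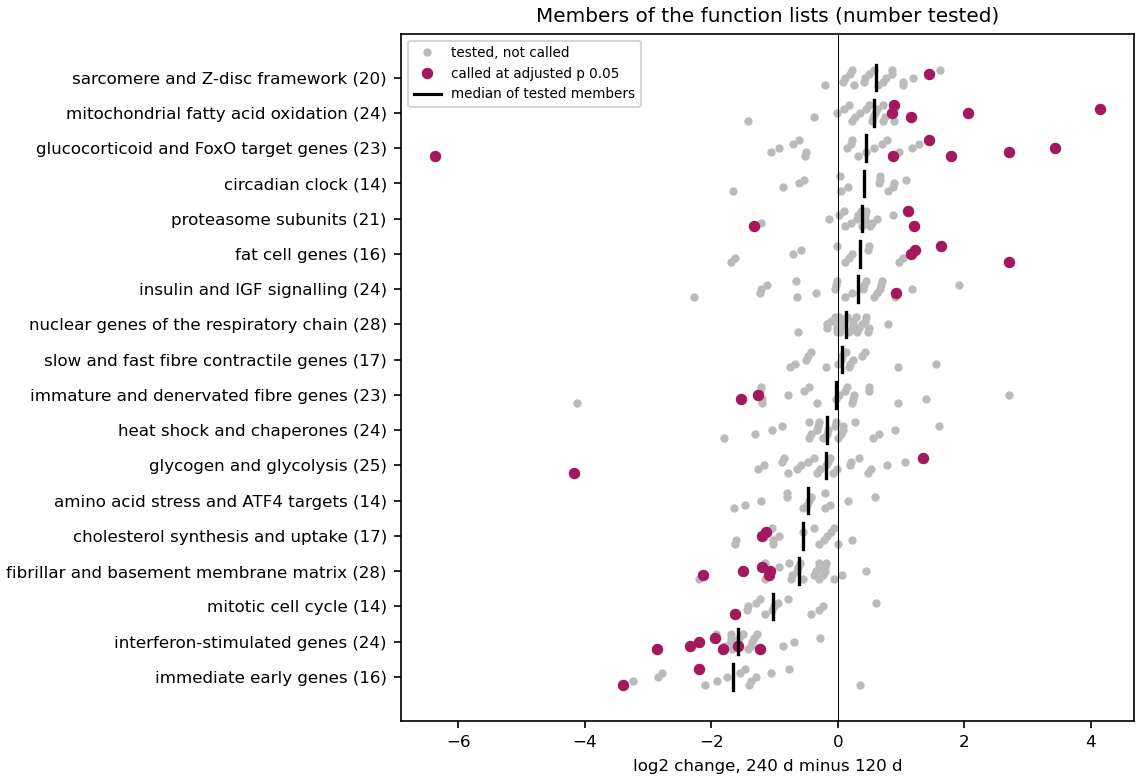
Log2 changes from 120 d to 240 d of the tested members of 18 function lists (grey points, red where called at an adjusted p of 0.05), with the median of each list as a black bar. The interferon-stimulated and immediate early genes lie almost wholly below 0, with medians of -1.58 and -1.65, and the lists of the sarcomere framework and of fatty acid oxidation have the highest medians, 0.61 and 0.58.

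The contractile genes of slow and fast fibres gave no call, with a median of 0.069 over 17 tested. At an unadjusted p under 0.05 there were 2, against 4037 of all 12993 tested features. TNNC2, the fast troponin C, had 20202, 14622 and 25106 FPKM at 120 d and 11255, 15580 and 10862 FPKM at 240 d (adjusted p = 0.198), and TNNC1, the slow one, had 3640.2, 3749 and 2948 against 4128, 2148 and 4613 FPKM. In the framework of the sarcomere and the Z-disc, 19 of 20 tested genes were positive, with a median of 0.61, of which 1 was called. LMOD2, leiomodin, which builds the actin filaments of the sarcomere (Sscrofa10.2 chromosome 18, 25401057 to 25456285), had 249, 151 and 180.3 FPKM at 120 d and 529, 651 and 574 FPKM at 240 d (log2 change 1.45, SE 0.23, adjusted p = 0.0329). Replicate 2 of 240 d was the highest library in 16 of the 20 genes, among them PDLIM3, with 764, 399 and 499 against 929, 2584 and 1598 FPKM (adjusted p = 0.0612). Without that library the median of the list was 0.295. LMOD2 was not called without replicate 2 or 3 of either age.

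In the list of immature or denervated fibre genes, 2 of 23 tested members fell and 0 rose, about a median of -0.030. The list also holds repressors of muscle genes, so these 2 decreases are not read as 1 direction. NES, nestin, an intermediate filament protein of developing muscle, had 7.55, 5.53 and 7.49 against 2.14, 2.18 and 2.53 FPKM (log2 change -1.53, SE 0.19, adjusted p = 0.0232), and HDAC9, a deacetylase that represses muscle genes, had 4.29, 3.68 and 4.37 against 2.90, 1.23 and 0.893 FPKM (log2 change -1.26, SE 0.29, adjusted p = 0.0487). Among satellite cell markers all 5 tested were negative, with a median of -1.21, and CALCR, the calcitonin receptor of quiescent satellite cells, was called, at 1.32, 1.36 and 1.29 against 0.305, 0.530 and 0.208 FPKM (log2 change -1.95, SE 0.35, adjusted p = 0.0376). The median was -0.56 without replicate 2 of 120 d, and CALCR was called in none of the fits that left out 1 library. Of 14 tested genes of the mitotic cell cycle, 13 were negative (median -1.02) and 1 was called, the replication licensing factor MCM2, with 1.09, 1.79 and 1.22 against 0.517, 0.282 and 0.528 FPKM (log2 change -1.62, SE 0.34, adjusted p = 0.0432). MCM2 was called in none of the fits that left out 1 library. The summed level of the 17 matched cell cycle genes was 8.90, 16.0 and 9.31 FPKM in replicates 1 to 3 of 120 d and 5.93, 6.94 and 6.58 FPKM in those of 240 d. In 10 of the 14 tested genes replicate 2 of 120 d was the highest library, and without it the median was -0.82 over 10 tested.

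The collagen matrix was lower in the 240 d libraries in 26 of 28 tested genes, with a median of -0.61, 5 calls lower and 0 higher. COL1A2, a chain of type I collagen (Sscrofa10.2 chromosome 9, 81357192 to 81393120), stood at 159, 219 and 139 FPKM in the 120 d libraries and at 87.0, 58.0 and 80.0 FPKM in the 240 d libraries (log2 change -1.20, SE 0.26, adjusted p = 0.0440). COL5A1, of the type V collagen that starts fibrils, had 52.0, 54.0 and 42.9 against 28.0, 19.0 and 21.0 FPKM (log2 change -1.09, SE 0.21, adjusted p = 0.0402). COL15A1, of the basement membrane, had 32.6, 33.2 and 35.4 against 20.3, 12.5 and 15.6 FPKM (log2 change -1.06, SE 0.20, adjusted p = 0.0408). The proteoglycan FMOD, fibromodulin (log2 change -1.50, adjusted p = 0.0310), and POSTN, periostin (-2.14, 0.0458), fell as well. With all 12 libraries in 1 fit COL15A1 alone of the 28 was called. Replicate 2 of 120 d, with a summed level of 3067 FPKM against 2298 and 2281 FPKM in replicates 1 and 3, was the highest library in 17 of the 28 genes and in all 4 fibroblast markers. Without it the median was -0.46 and FMOD alone was called. No gene of the list was called without replicate 2 or 3 of 240 d or without replicate 3 of 120 d. In 18 of the 28 genes every 240 d library lay below every 120 d library, against 18.4% of all features. LAMC1, a laminin chain, was the highest of the 2 positive members (log2 change 0.45, adjusted p = 0.198). The fibroblast markers, which share COL3A1, LUM and DCN with this list, gave no call among 4 tested, with a median of -0.63 and a summed level of 798 to 1169 FPKM in the 120 d libraries and 430.2 to 625 FPKM in the 240 d libraries. PDGFRB, the marker outside the matrix list, had a log2 change of -0.065 (0.884). The part of fibroblast number in the matrix genes was not tested.

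Proteasome subunits gave calls in both directions. PSME4, an activator that caps the core particle, had 17.4, 11.9 and 18.6 FPKM at 120 d and 37.6, 40.0 and 31.6 FPKM at 240 d (log2 change 1.20, SE 0.22, adjusted p = 0.0385), and PSMD12, of the regulatory lid, had 17.0, 12.1 and 13 against 23.4, 32.9 and 34.3 FPKM (log2 change 1.1, SE 0.21, adjusted p = 0.0409). PSME1, an activator that interferon induces, fell from 56.8, 115 and 55.7 to 33.5, 24.6 and 32.4 FPKM (log2 change -1.33, SE 0.31, adjusted p = 0.0491), and its partner PSME2 had a log2 change of -1.21 (adjusted p = 0.0556). Over the list, 2 of 21 tested genes rose and 1 fell, 18 were positive, and the median was 0.38. After removal of the length trend PSME1 was no longer called.

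All 24 tested interferon-stimulated genes, which cells switch on against viruses, had a negative log2 change, 7 of them were called, and the median was -1.58. MX1 had 4.96, 30.4 and 12.7 FPKM at 120 d and 2.52, 1.44 and 2.65 FPKM at 240 d (log2 change -2.85, SE 0.61, adjusted p = 0.0440). OAS2, a sensor of double-stranded RNA (Sscrofa10.2 chromosome 14, 41196286 to 41208972), had 3.72, 5.26 and 6.65 against 1.28, 1.44 and 1.20 FPKM (log2 change -1.95, SE 0.25, adjusted p = 0.0244), with little spread in either age. IRF7, the factor that amplifies interferon production, had 4.89, 19.5 and 6.94 against 2.22, 1.76 and 2.18 FPKM (log2 change -2.33, SE 0.50, adjusted p = 0.0442), and MX2, a relative of MX1, had 4.34, 10.1 and 8.44 against 1.98, 1.04 and 0.933 FPKM (log2 change -2.19, SE 0.49, adjusted p = 0.0458). The further calls were DHX58 (log2 change -1.81), RSAD2 (-1.58) and IFIT5 (-1.23). Replicate 2 of 120 d was the highest library in 22 of the 24. Without that library the median was -0.98, and OAS2 and IRF7 remained called out of 22 tested. No member was called without replicate 2 or 3 of 240 d or without replicate 3 of 120 d. OAS2 alone was called without replicate 1 of 240 d, and 7 members without replicate 1 of 120 d.

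Replicate 2 of 120 d was also highest in all 10 tested leukocyte markers. All 10 had a negative log2 change, with a median of -1.69, and TYROBP, an adaptor of myeloid and natural killer cells (16.7, 43.5 and 23.2 against 6.53, 5.54 and 11.1 FPKM, log2 change -1.84, SE 0.40, adjusted p = 0.0442), and CD4 (0.454, 1.35 and 0.482 against 0.173, 0.0867 and 0.0722 FPKM, log2 change -2.68, SE 0.59, adjusted p = 0.0456) were called. Their summed level was 46.4, 144 and 61.6 FPKM in replicates 1 to 3 of 120 d and 25.1, 22.5 and 39.2 FPKM in those of 240 d, and that of the interferon-stimulated genes was 91.1, 376 and 142 FPKM against 71.5, 65.6 and 73.5 FPKM. Replicate 2 of 120 d stood above the other libraries in both sums. Without it the leukocyte median was -0.95 and none of 9 tested was called. No leukocyte marker was called in any of the fits that left out 1 library. No tested leukocyte marker was at 0 in any of the 6 libraries, and the part of white blood cells in the interferon result was not tested.

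**Figure D4:**
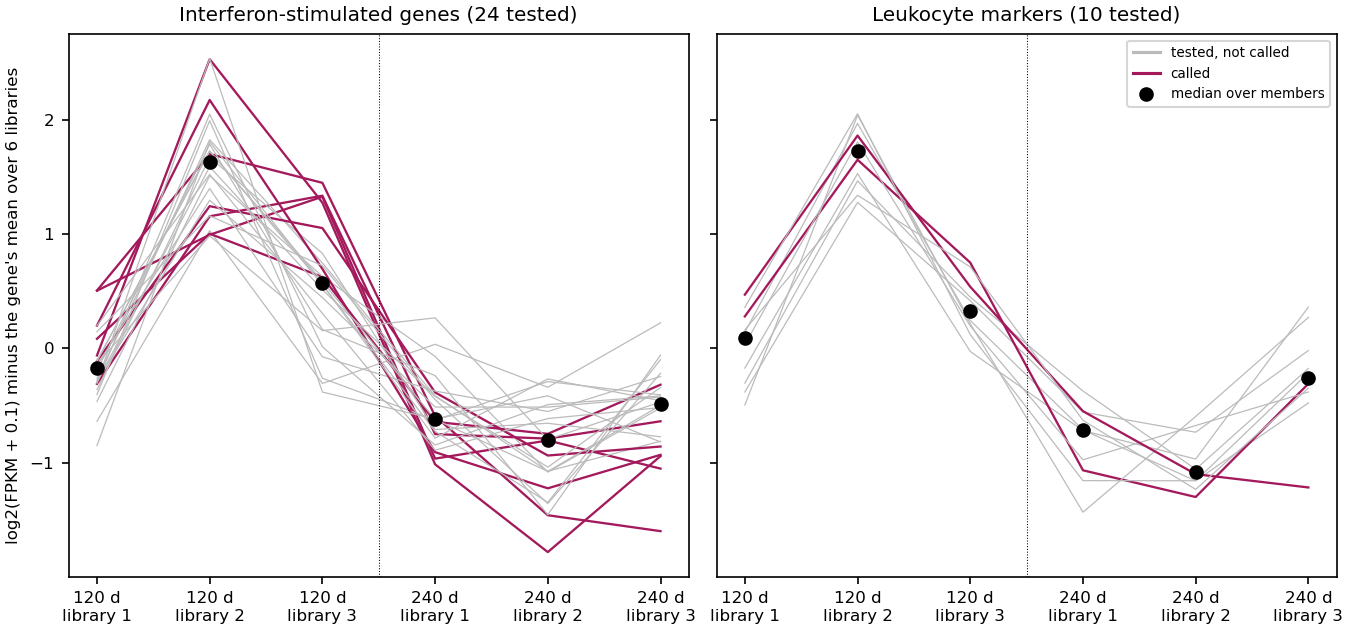
Level of each tested interferon-stimulated gene (left, 24 genes) and leukocyte marker (right, 10 genes) in the 6 libraries, as log2(FPKM + 0.1) minus the mean of the gene, with called genes in red and the median over members as black points. Replicate 2 of 120 d is highest in both panels, and every 240 d median lies below every 120 d median.

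The other cell types gave no call. Endothelial markers had a median of -0.31 over 4 tested, with TIE1, a vascular receptor, at a log2 change of -0.71 (adjusted p = 0.0761) and PECAM1 at 56.0, 63.9 and 42.3 against 38.9, 38.7 and 53.4 FPKM. Smooth muscle and pericyte markers had 0.076 over 5, with TAGLN at 0.076 and ACTA2 at 0.18. The 2 tested red cell markers, HBB (0.50) and ALAS2 (0.65), overlapped between the ages. HBB, beta-globin, was lowest in replicate 2 of 120 d, at 30.5 FPKM, and was 215 and 139 FPKM in replicates 1 and 3.

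The called features were then looked up in the 6 libraries that the comparison did not use, those labelled 60 d and 400 d. Of the 298 features called higher in the 240 d libraries, 269 (90.3%) were higher in the 400 d than in the 60 d libraries, where 48.4% of all 12992 features were, and 107 of them were called there, against 6.83% of all features. Of the 407 called lower, 388 (95.3%) were lower in the 400 d libraries, against 51.6% of all, and 172 were called, against 7.01%. No feature was called in opposite directions. The median log2 changes were 0.81 and -1.15, and -0.030 over all. In the supplementary list that gives other ages, the libraries labelled 60 d and 400 d are named 240 d and 60 d.

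The leading genes did not all follow. All 15 with the largest decrease were lower in the 400 d libraries, 9 of them called, such as IER3 (log2 change -3.65), ENHO (-3.36) and KCNIP2 (-4.0). Among the 15 with the largest increase, 10 were higher at 400 d and 2 were called, RABEP2 (2.54) and ACSL1 (2.01). The other 5 were negative without passing the test, such as PPARGC1A (-1.23, adjusted p = 0.320), ABHD2 (-1.78, 0.0938) and ITIH3 (-1.05, 0.271). Over the labelled ages 60, 120, 240 and 400 d, the mean summed level of the matrix genes was 2740, 2549, 1502 and 878 FPKM, that of the cell cycle genes 16.3, 11.4, 6.48 and 6.84 FPKM, that of the interferon-stimulated genes 190.1, 203, 70.2 and 74.1 FPKM and that of the leukocyte markers 54.2, 84.1, 28.9 and 21.8 FPKM. In each of these 4 lists both means at 60 d and 120 d exceeded both at 240 d and 400 d. The fatty acid oxidation list had 1440, 1184, 1739 and 1655 FPKM, lowest at 120 d, but its 24 members split into 12 higher and 12 lower at 400 d than at 60 d (median log2 change 0.055). Of the 16 fat cell genes, 6 were higher and 10 lower at 400 d (median -0.12).

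**Figure D5:**
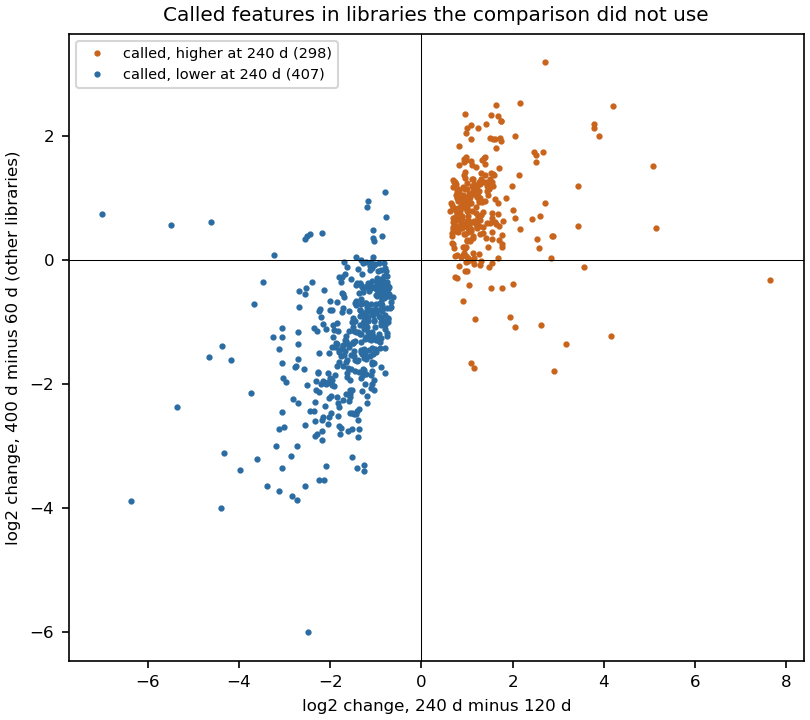
Log2 change of each called feature from 120 d to 240 d (horizontal) and from 60 d to 400 d (vertical), 2 comparisons that share no library. Of the 298 features called higher at 240 d (orange), 269 lie above 0 on the vertical axis, and of the 407 called lower (blue), 388 lie below it.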

How the data were processed

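RNA-seq of LD muscle covered 12 libraries, 3 pigs at each of 4 ages, and the 6 labelled 120 d and 240 d were compared. The 3 libraries of an age are columns of 1 table and carry no shared numbers across ages; replicate numbers follow column order and only name a library. The authors sequenced paired ends of 125 cycles from libraries of poly(A) RNA that do not mark the strand, removed reads of low quality, mapped the rest to Sscrofa10.2 with TopHat2 and estimated expression with Cufflinks, in versions not given in the sources used here. The submitters' processing notes name Bowtie 0.12.2 and the mouse build mm8 as well; the pig coordinates in the files are those used. The authors deposited whole-number counts per gene, not normalized, FPKM (scaled to transcript length and mapped total) and a scaled count signal, which was not used. Without strand, a gene cannot be told from an antisense partner.

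Here the counts were tested by edgeR 4.0.16 in R 4.3.3 (quasi-likelihood test, TMM factors). The 12993 features whose mean reached 10 counts at 1 age or both were fitted, p-values were adjusted over them after Benjamini and Hochberg, and every adjusted p in the text, unless another tool is named, is from such a fit. A feature was called at an adjusted p of 0.05 or below. A log2 change is that of the 240 d over the 120 d libraries (or 400 d over 60 d where said), and its SE was taken from the test. FPKM gave the levels. The fit was also run on simulated counts, with the same dispersion for every gene and changes larger than most called here. That run cannot speak for the present calls. Each library held 9713813 to 11912809 counts, so that 3 counts, the limit that a count of 0 allows, were 0.252 to 0.309 CPM. Intervals and floors cover counting error only, and with 3 pigs a group, p-values measure the spread between these pigs.

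Genes were named by a rule: the 15 largest called increases and decreases with a symbol, a mean of at least 50 counts at the higher age, ages that do not overlap and no place in the study's tables of genes; up to 4 called members of each list; and the 2 members of highest FPKM where a list had no call. Further members given with values, and the genes and families in the closing observations, were chosen after their values were seen. The comparison, its members and the lists were chosen with earlier results of these data known. Of 568 entries in 18 function lists, 391 were matched to an identifier, and of 72 marker symbols 41. Symbols came from a table of a later Ensembl release. Of 101 named genes, 96 lay on the same chromosome in the RefSeq table of Sscrofa11.1. Alternatives were DESeq2 1.42.0 (its size factors within edgeR, and its Wald test), other count filters and thresholds, all 12 libraries in 1 fit, leaving out each library, log2 ratios of mean FPKM, and, added after seeing the data, removal of each library's trend over feature length by a smoothing spline of 5 degrees of freedom. No sequences were used, and some genes are not reported here.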

Additional observations from a re-analysis of the deposited data

How the results depend on the processing

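Every named gene that was called kept its direction under each alternative run. These genes were chosen on the same libraries, so a kept direction was largely set in advance. Genes named without a call could turn sign, as NDUFA4, COX4I1, CRY2, SLC3A2, TAGLN and ACTA2 did when 1 library was left out. The calls themselves were less steady: with all libraries kept, the number called stayed between 623 and 910 under DESeq2 size factors, other count filters, the 12-library fit and removal of the length trend, while the DESeq2 Wald test called 2087 (879 higher, 1208 lower at 240 d). An adjusted p of 0.01 with an absolute log2 change of 1 left 2 features (1 higher and 1 lower), and an adjusted p of 0.05 with that change left 179 higher and 321 lower. Leaving out 1 library gave 2 to 470 calls, 0 to 224 higher and 1 to 246 lower. These fits have 1 library less and so fewer degrees of freedom. Without single libraries, 31 (replicate 1 of 240 d) to 77 (replicate 3 of either age) of the 101 named genes changed their side of the threshold to not called. The 12-library fit did so for 15, removal of the length trend for 6 and DESeq2 size factors for 1. The 101 include the genes named without a call, which had none to lose. Without replicate 3 of either age, 24 of the 101 kept their side, and nearly all of these had no call in the main fit. Among the lists described here, medians changed sign for heat shock (-0.348 to 0.095), contractile (-0.039 to 0.173) and immature fibre genes (-0.267 to 0.069) and for smooth muscle markers (-0.157 to 0.298). The cause was not tested. No paired analysis was possible because the labels and columns give the libraries no numbers shared between ages. Depth limits genes near 3 counts, such as CITED2 at 240 d, and identifiers without a symbol could not be read by function.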

Other observations

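The groups in these paragraphs were drawn up after the values were seen and carry no test as groups. The autophagy machinery, 39 tested genes found by symbol, held 9 genes called higher and 0 lower in the 240 d libraries, beside 2.29% and 3.13% over all features, with 33 positive and a median log2 change of 0.54. SQSTM1, the receptor p62 that brings ubiquitin-marked cargo to the forming vesicle, had 212, 209 and 157 FPKM at 120 d and 443, 652 and 788 FPKM at 240 d (log2 change 1.70, SE 0.26, adjusted p = 0.0310), and NBR1, a receptor of the same kind, had 17.7, 19.7 and 18.3 against 26.6, 37.6 and 30.1 FPKM (log2 change 0.77, SE 0.18, adjusted p = 0.0492). TP53INP2 (24.5, 14.0 and 20.3 against 49.7, 79.3 and 58.9 FPKM, log2 change 1.69), ATG14, of the kinase complex that starts the membrane (1.19), and WIPI1 (0.85) rose too, with ages that did not overlap. In the libraries labelled 60 d and 400 d, 35 of the 39 were higher at 400 d.

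Genes of ubiquitin transfer and of the answer to proteotoxic and oxidative stress were among the other calls. FBXO40, a ubiquitin ligase subunit of muscle, had 39.3, 20.2 and 43.0 FPKM at 120 d and 104, 74.7 and 109.9 FPKM at 240 d (log2 change 1.5, SE 0.31, adjusted p = 0.0432). NFE2L1, the factor that raises proteasome genes, had 57.9, 44.8 and 38.5 against 88.9, 118 and 113 FPKM (log2 change 1.15, SE 0.21, adjusted p = 0.0389), and KEAP1, the adaptor that marks its relative NFE2L2 for breakdown, had 0.519, 0.405 and 0.561 against 1.33, 1.20 and 1.40 FPKM (log2 change 1.40, SE 0.22, adjusted p = 0.0321). Of 35 ubiquitin-specific proteases, 4 rose and 0 fell (median 0.38), among them USP7 (1.01). Of 26 cytosolic ribosomal protein genes, 3 fell (RPS16, RPS21 and RPS28) and 24 were negative, with a median of -0.47, or -0.32 after removal of the length trend. Ribosomal protein genes are short, with a median of 787 bases here, and have many pseudogenes that can take reads.

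Regulators of the muscle lineage were found on both sides. MYOD1, the factor that commits cells to muscle, had 41.2, 44.1 and 36.6 FPKM at 120 d and 9.96, 4.57 and 7.91 FPKM at 240 d (log2 change -2.44, SE 0.28, adjusted p = 0.0232), and MSC, musculin, which opposes it, had 2.06, 3.89 and 2.56 against 0.539, 0.414 and 0.656 FPKM (log2 change -2.32, SE 0.33, adjusted p = 0.0310). FGFR4, a growth factor receptor of muscle precursors (-1.47), and LBX1, a factor of migrating precursors (-1.05), fell as well. MEF2A, a factor of mature fibres, had 17.6, 20.5 and 18.2 against 29.9, 44.1 and 35.5 FPKM (log2 change 0.98, SE 0.19, adjusted p = 0.0409). At 400 d against 60 d, MYOD1 and MSC were called lower and MEF2A higher, FGFR4 was not called (log2 change -0.98, adjusted p = 0.0916), and LBX1 had the opposite sign without a call (0.37, 0.513). The cytoskeletal actins ACTB (362, 608 and 281 against 171, 73.4 and 135 FPKM, log2 change -1.66) and ACTG1 (567, 727 and 361 against 252, 112 and 166 FPKM, -1.63) fell, with the caution that their coding sequences are nearly identical. FNDC5, whose product is cut to irisin, fell (log2 change -1.84), and TIGAR, a phosphatase of fructose bisphosphates, rose (1.55).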
